A study of Mus musculus with 22 samples.

Results

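The liver makes most of the proteins that clot blood and most of the serpins that hold proteases in check, and their transcripts were examined here as 1 group. The members were every array target named for a serpin, and 18 factors: F2, F5, F7, F9, F10, F11, F12, F13b, Fga, Fgb, Fgg, Proc, Pros1, Plg, Kng1, Klkb1, Ahsg and Fetub. They came to 77 target names, which stand for 76 genes and 113 of the 45281 probes. A probe counted as detected on an array when its detection p-value was under 0.05, and a gene was tested when a probe of it was detected on at least 5 of the 22 arrays. Of the 76 genes, 44 were tested, among 9881 genes in all, and 32 were not.

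The livers came from 22 C57BL/6J males aged 29 weeks, and 1 array was measured per mouse, on 4 Illumina BeadChips (slides). Their dams were assigned at 5 weeks of age to either a western diet, written W, or a low-fat control diet, written L. The dams ate it for 6 weeks before mating and until the pups were weaned. The sons were then kept on W or L during 24 weeks. Groups are written with the dam's diet before the son's, which gives 6 LL, 5 LW, 5 WL and 6 WW mice. The series title asks how a maternal western diet bears on inflammation in the adult liver. The labels name no litter, so each mouse was treated as independent, and p-values measure the spread between these mice. All 7 hepatocyte markers listed (Alb, Ttr, Apoa1, Apoa2, Trf, Apoh and Hnf4a) were detected on 22 of 22 arrays.

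Clotting proceeds through a chain of proteases that activate each other, ends in thrombin, and turns fibrinogen into fibrin, which plasmin later dissolves. Serpins are decoy substrates: most trap a protease by offering it a loop, and a few carry hormones or fold collagen instead. In mice the human genes for alpha-1-antitrypsin and antichymotrypsin are each represented by several copies that lie side by side.

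The 4 slides held 5 to 6 arrays each, and each slide lacked 1 group: WL on slide 1, LL on slide 2, WW on slide 3 and LW on slide 4. The arrays detected from 13285 to 15105 probes, and correlations between arrays ran from 0.949 to 0.990. The median F statistic for a slide difference was 3.76 over the 44 members and 2.04 over all genes, against 0.826 without such a difference, so values within slides and with slide as a block stand beside the results they touch. Precision is limited by how many arrays there are. Levels are log2 normalised intensities, which compare mice for 1 probe and never 1 probe with another.

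The 5 tested copies of the alpha-1-antitrypsin gene and Fgb, the only member that passed a test, at levels near background, are shown first by the sequence before their start. The copies are shown because they differed in their spread between mice. The following lines give the 150 bases upstream of the annotated start (RefSeq, GRCm38.p6), 5′ to 3′ in the direction of transcription. Capitals mark GTTAAT or its reverse complement ATTAAC, an arm of the palindromic site bound by the liver factor HNF1.
Serpina1a: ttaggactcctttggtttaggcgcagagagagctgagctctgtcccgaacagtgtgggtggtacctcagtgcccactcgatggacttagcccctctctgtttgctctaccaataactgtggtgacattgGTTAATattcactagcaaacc
Serpina1b: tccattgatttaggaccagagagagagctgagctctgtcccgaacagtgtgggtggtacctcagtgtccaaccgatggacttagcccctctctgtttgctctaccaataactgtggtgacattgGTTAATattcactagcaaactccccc
Serpina1c: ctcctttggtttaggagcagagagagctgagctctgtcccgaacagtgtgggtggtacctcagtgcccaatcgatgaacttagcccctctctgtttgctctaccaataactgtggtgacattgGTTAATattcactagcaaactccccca
Serpina1d: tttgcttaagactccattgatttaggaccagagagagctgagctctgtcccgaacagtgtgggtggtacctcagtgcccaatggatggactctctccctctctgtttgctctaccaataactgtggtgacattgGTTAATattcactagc
Serpina1e: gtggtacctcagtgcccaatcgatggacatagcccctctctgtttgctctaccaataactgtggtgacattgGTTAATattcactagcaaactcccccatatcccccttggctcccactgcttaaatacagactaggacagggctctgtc
Fgb: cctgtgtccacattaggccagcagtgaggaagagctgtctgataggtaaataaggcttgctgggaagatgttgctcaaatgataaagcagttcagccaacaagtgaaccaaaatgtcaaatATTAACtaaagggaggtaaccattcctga

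All 6 stretches lie on the minus strand. The Serpina1 copies are on chromosome 12, at chr12:103863620-103863769 for Serpina1a, chr12:103738190-103738339 for Serpina1b, chr12:103904951-103905100 for Serpina1c, chr12:103773634-103773783 for Serpina1d and chr12:103956898-103957047 for Serpina1e. Fgb is at chr3:83049864-83050013. Aligned with each other, the 5 Serpina1 stretches were 92.4% to 98.0% identical over 88 to 148 bases. The capitals begin 16 to 27 bases before the start in Serpina1a to Serpina1d and 78 bases before it in Serpina1e. The bases around the capitals read the same in the 5 copies, so this distance differs with where the start is annotated. GTTAAT was present on either strand in 3.71% of 32851 RefSeq promoters of this length and in 9 of the 34 tested members that the table lists (26.5%: F13b, Fga, Fgb, Serpina7 and the 5 Serpina1 copies). The 5 Serpina1 copies are nearly identical here, so they are not separate cases in that share. A match of letters is a description and not a measured binding site.

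Diet after weaning was compared within each maternal diet. In LW against LL and in WW against WL, none of the 44 members passed limma's test at a Benjamini-Hochberg adjusted p under 0.05, where 0.243% and 0.476% of all 9881 genes did. At an unadjusted p under 0.05, 8 members stood out in LW against LL (15.4% of all genes did) and 7 in WW against WL (13.8%), close to the background when read as shares of 44. When both comparisons were averaged, 1 of 44 members passed, Fgb (adjusted p = 0.0178 by limma), beside 2.71% of all genes (1.18% lower). Fgb entered the test only through mice on the low-fat diet, which gave 6 of the 7 arrays that detected it, so its choice and its difference are not separate and the call is given as a description. Fgb also passed with no filter on detection. With genes required on at least 11 arrays, Fgb was not tested and Serpine2 was the 1 member that passed (adjusted p = 0.0495). At an unadjusted p under 0.05 the average had 3 members higher, beside 10.6% of all genes, and 9 lower, beside 9.48%. No member had groups that did not overlap in either comparison, against 2.34% and 1.82% of all genes.

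The fibrinogen chains and factor XIII's carrier subunit come first. Fgb encodes the beta chain of fibrinogen. Its levels in LL ran from 4.46 over a median of 4.87 to 5.31, and the 5 LW mice measured 4.37, 4.42, 4.34, 4.53 and 4.43. In WL they were 4.67, 4.95, 4.83, 4.94 and 4.88, and in WW they ran from 4.36 over a median of 4.48 to 4.86. Values on the western diet lay mostly below those on the low-fat diet, with 1 LL mouse (replicate 2) among the LW values and 1 WW mouse (replicate 6) among the WL values. All these levels are close to the background: the probe was detected on 7 arrays, in 3 of 6 LL, 0 of 5 LW, 3 of 5 WL and 1 of 6 WW mice. It was the only Fgb probe, while the probes used for Fga and Fgg were detected on all 22 arrays. How well this probe reports the Fgb transcript was not tested, so its levels may not be those of the transcript. Since Fgb was not detected on any LW array, the comparison with LL has only a bound, which came out below 1, and no fold is given. In WW against WL, where 1 WW mouse had it above background, the adjusted p was 0.237. With slide as a block as well, Fgb passed in the average in 11 of the 22 fits that left out 1 mouse.

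The other chains showed no call. Fga, the alpha chain, averaged 14.90 ± 0.13 in LL (SD, n = 6), 14.84 ± 0.08 in LW (n = 5), 14.93 ± 0.06 in WL (n = 5) and 14.82 ± 0.17 in WW (n = 6). Fgg, the gamma chain, averaged 12.11 ± 0.48 in LL, 11.90 ± 0.46 in LW, 12.17 ± 0.16 in WL and 12.03 ± 0.29 in WW. In the average after weaning, Fga differed by -0.08 (95% interval -0.23 to 0.06) and Fgg by -0.18 (-0.49 to 0.12). With slide as a block the Fgg difference was 0.06 (adjusted p = 0.806 by limma), and WW minus WL was -0.17 on slide 2 and 0.20 on slide 4, so its direction turned with the slide. F13b, the subunit that carries the fibrin cross-linking factor XIII, differed by -0.16 in LW against LL and -0.22 in WW against WL. With the mean over its 2 detected probes, F13b passed in the average after weaning (-0.30, adjusted p = 0.038 by limma), so its size depends on the probe. That setting called 264 of all genes in the average. The Fga signal lay within 2 log2 units of the brightest probe of any array (15.51), as did those of Ahsg, Kng1, Serpina1b, Serpina1c, Serpina1d and Serpinf1, and differences are compressed there.

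No correlation between the 3 chains passed the test across mice, but the probes limit what it can show. Fgb was detected on 7 of 22 arrays, Fga lay near the brightest signal, and Fgg lay apart on slide 1. The values therefore cannot decide whether the chains vary together. After the group means were removed, Pearson's r over 22 mice was 0.10 for Fga with Fgb, -0.02 for Fga with Fgg and 0.34 for Fgb with Fgg, with adjusted permutation p of 0.914, 0.914 and 0.364 over the 3 pairs. Spearman's rho was 0.03, -0.07 and 0.50 in the same order, with adjusted permutation p of 0.897, 0.897 and 0.062. Without the 2 mice farthest from the median, r was 0.28, -0.14 and 0.40. With slide removed as well, r was -0.09, 0.36 and 0.16. Within slide 2 the 3 values were 0.11, 0.49 and 0.49, and within slide 4 they were -0.55, -0.69 and 0.43, over 6 mice each.

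**Figure D1:**
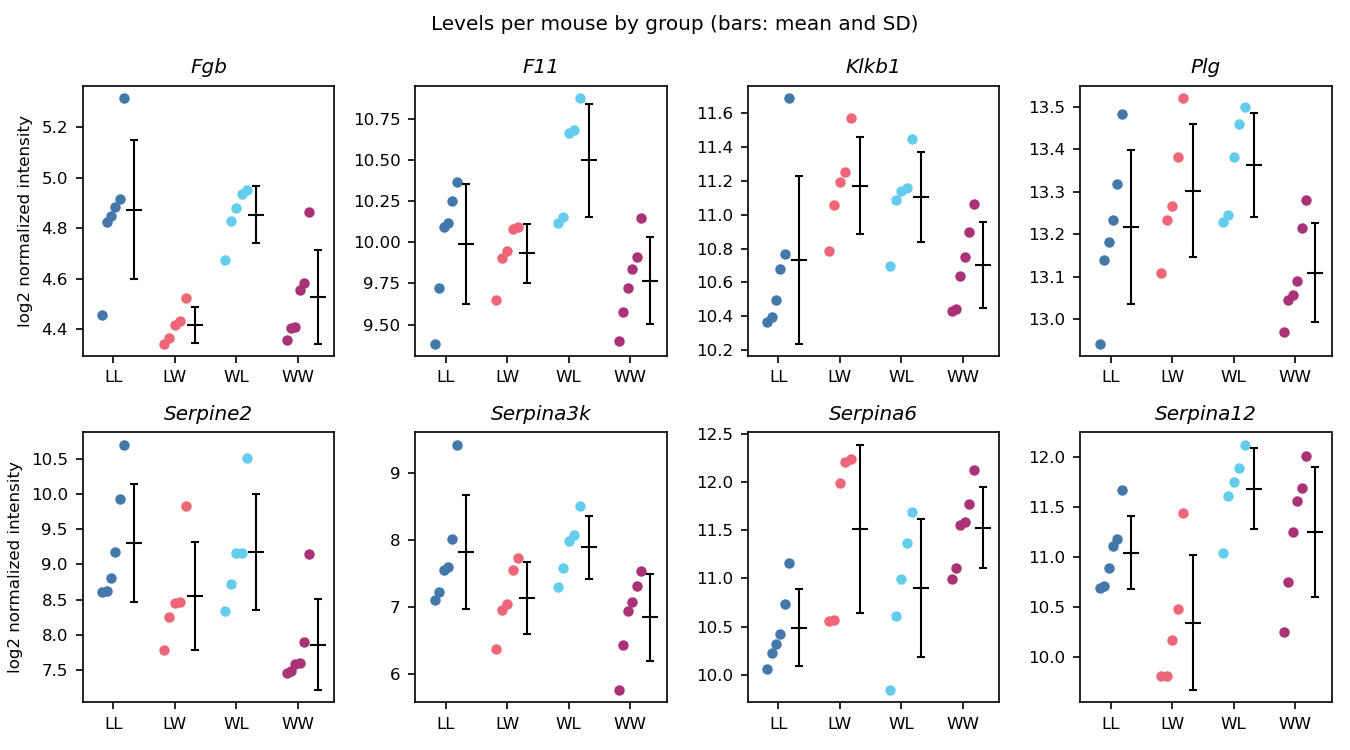
Log2 normalised intensity of 8 members in each mouse (points, sorted by value only to part them) by group, with the mean and SD at the right of each group; each panel has its own vertical range. Fgb was at 4.34 to 4.53 in LW and at 4.46 to 5.31 in LL, and F11 was highest in WL (10.12 to 10.88).

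The contact system starts clotting on charged surfaces. Its members are factor XII (F12), plasma prekallikrein (Klkb1), high-molecular-weight kininogen (Kng1) and factor XI (F11), and all 4 were lower in WW than in WL, from -0.10 (F12) to -0.73 (F11), with none past the adjusted threshold. F11 had the smallest p of any member in WW against WL. In WL it measured 10.68, 10.16, 10.12, 10.67 and 10.88, and in WW it ran from 9.40 over a median of 9.78 to 10.15. The overlap came from WL replicate 3 (10.12) and WW replicate 4 (10.15) alone. F11 was 1.66-fold lower in WW (log2 difference -0.73, SE 0.17), and its adjusted p of 0.0556 missed the threshold. In LL it ran from 9.38 to 10.37 with a median of 10.11, and the LW mice measured 9.95, 9.90, 10.09, 10.08 and 9.65. All LW mice lay within the range of LL, with a difference of -0.06 (95% interval -0.41 to 0.30).

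A second F11 probe gave -0.72 in WW against WL. Within slides, F11 was lower in WW by -0.56 on slide 2 and -1.10 on slide 4. With slide as a fixed block the F11 difference was -0.79 and passed (adjusted p = 0.0206 by limma). Leaving out WL replicate 5, the highest F11 value, gave -0.64 with an adjusted p of 0.234 without the block and -0.72 with an adjusted p of 0.135 with it. The same mouse stood apart in markers of exocrine pancreas, of which 3 of the 19 listed were tested: their mean difference from LL was 1.47 there, and WL ran from -0.03 to 1.47 while WW ran from -0.32 to 0.13. The part of these markers in the F11 difference was not tested.

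Klkb1 had the smallest p of the members in the interaction, which asks whether the effect of the son's diet differs with the dam's. LL ran from 10.37 over a median of 10.59 to 11.69, and the LW mice measured 11.57, 11.06, 11.25, 11.19 and 10.78. The WL mice measured 11.44, 10.70, 11.16, 11.14 and 11.09, and WW ran from 10.43 over a median of 10.69 to 11.07. The medians of LW (11.19) and WL (11.14), where dam and son had eaten different diets, lay above those of LL and WW, and all groups overlapped. LL replicate 1, at 11.69, was the only LL mouse to reach the range of LW, while the other pairs of groups overlapped without it. The interaction was -0.84 (SE 0.28) with an adjusted p of 0.518 by limma, built from 0.44 in LW against LL and -0.40 in WW against WL. On slide 1, where LL replicate 1 was the only LL mouse, Klkb1 was lower in LW than in LL by -0.37, and on slide 3 it was higher by 0.40. A second Klkb1 probe gave 0.34 and -0.37 for the 2 diet comparisons.

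In the interaction, 0 of 44 members and 0% of all genes passed limma's test, while 3 members had an unadjusted p under 0.05, all with a negative interaction (F11, Klkb1 and Plg), beside 3.98% of all genes in that direction. For F11 the interaction was -0.68 (adjusted p = 0.542). Plg encodes plasminogen, the precursor of the clot-dissolving protease plasmin. It averaged 13.22 ± 0.18 in LL, 13.30 ± 0.16 in LW, 13.36 ± 0.12 in WL and 13.11 ± 0.12 in WW, an interaction of -0.34 (SE 0.15, adjusted p = 0.605). These 3 genes were among 31 of the 44 members with a negative interaction, where 51.3% of all genes had one.

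The vitamin K-dependent factors and their cofactor gave small differences. F2 encodes prothrombin, whose active form cuts fibrinogen. It ran from 10.77 over a median of 11.74 to 12.15 in LL and from 10.86 over a median of 11.43 to 12.04 in WW. The LW mice measured 10.74, 10.89, 11.34, 11.64 and 11.62, and the WL mice 11.52, 11.58, 11.62, 11.79 and 12.24. These F2 levels moved with the slide: the 5 mice on slide 1 lay between 10.74 and 10.91 whatever their group, and the other 17 between 11.29 and 12.24. In the average after weaning F2 differed by -0.36 (adjusted p = 0.238), and by -0.05 with slide as a block (adjusted p = 0.784). Fgg and Serpina1d were the only other members whose 5 values on slide 1 lay apart from all others, at 11.15 to 11.77 and 14.24 to 14.62.

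F7, whose protein starts clotting with tissue factor, averaged 9.77 ± 0.44 in LL, 10.02 ± 0.35 in LW, 9.78 ± 0.22 in WL and 9.53 ± 0.26 in WW. F10, which makes thrombin from prothrombin, averaged 12.37, 12.63, 12.46 and 12.30 in the same order. F9 stayed between 12.63 and 12.71 in all 4 groups. F5, the cofactor of activated factor X, ran from 10.20 in LW and WW to 10.48 in WL. Of these 5 genes, all were lower in WW than in WL, by -0.02 to -0.33, and none passed the adjusted test.

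Proc and Pros1 encode protein C, which shuts down clotting, and its cofactor protein S. Proc averaged 12.13 in LL, 12.51 in LW, 12.25 in WL and 12.12 in WW. Its second probe gave 0.07 in LW against LL where the probe used gave 0.38, so the size depends on the probe. Pros1 was the only member outside the serpins that was higher in WW than in WL (by 0.16), and its means went from 8.97 in LL over 9.14 in LW and 9.20 in WL to 9.35 in WW. The fetuins, secreted proteins that resemble the kininogens, were close to level for Ahsg, an inhibitor of calcification, at 15.08 ± 0.13 in LL, 15.17 ± 0.11 in LW, 15.11 ± 0.06 in WL and 15.02 ± 0.11 in WW. Fetub averaged 11.82, 11.96, 11.81 and 11.50 in that order.

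The 44 members had a median log2 difference of 0.0046 in LW against LL and -0.128 in WW against WL, where the medians of all genes were 0.0105 and -0.0050. In WW against WL 35 of 44 members were lower, as were 50.9% of all genes, and outside the serpins 17 of 18 were. In WL against LL 35 of 44 were higher (51.9% of all genes), with a median of 0.10. The 2 comparisons share the WL mice, so these counts are not separate. The members also share the arrays and their scaling, and no test of the list as a whole was made. Macrophage and Kupffer cell markers, 10 of 11 of them tested, were all higher in WW than in WL without passing the test, and their mean difference from LL ran from -0.05 to 0.54 in WW and from -0.30 to 0.08 in WL. For the 7 hepatocyte markers it ran from -0.34 to 0.16 in WW, from -0.03 to 0.06 in WL and from -0.31 to 0.21 in LL. The 5 mice on slide 1, which held no WL mouse, lay between -0.37 and -0.26 for these markers whatever their group. The part of either list of markers in the members' values was not tested. In whole liver, fewer cells of a type and less RNA per cell cannot be told apart.

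**Figure D2:**
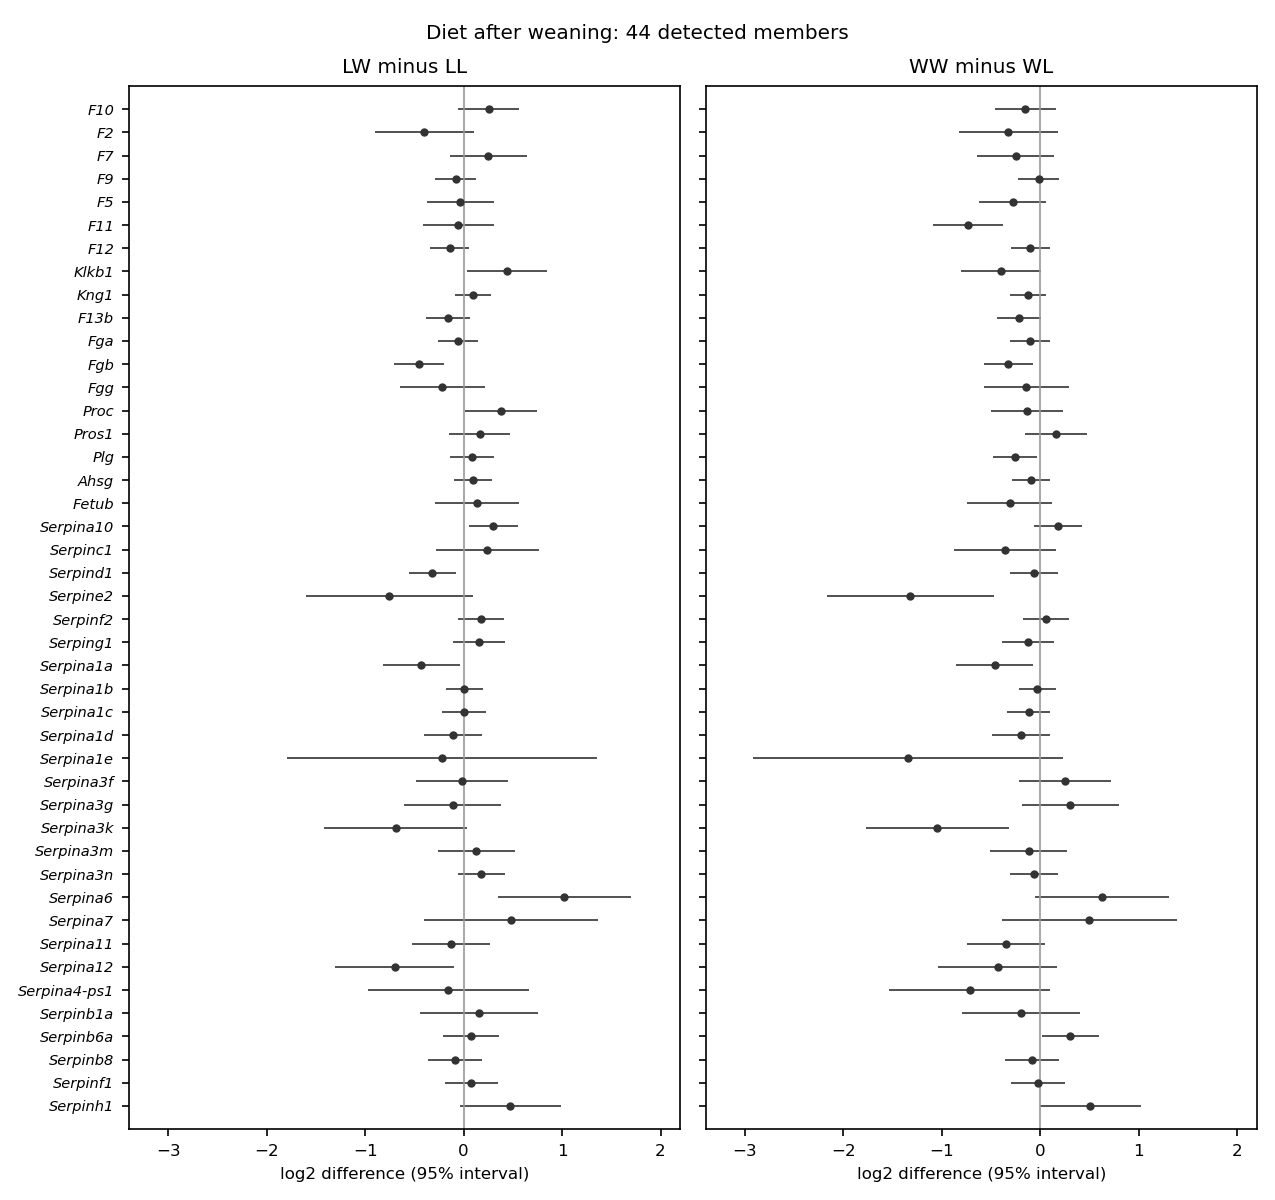
Log2 difference (points) with its 95% interval from limma (bars) for the 44 tested members in LW minus LL and WW minus WL, ordered by role from clotting factors to serpins. Most points in the right panel lie left of 0 (35 of 44), and Serpina1e has the widest interval, -2.91 to 0.23 in WW minus WL.

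Among the serpins that act on clotting, the contact system and fibrinolysis, Serpine2 had the largest difference. It encodes protease nexin-1, which inhibits thrombin and the activators of plasminogen. Serpine2 ran from 8.61 over a median of 8.99 to 10.71 in LL, and the LW mice measured 8.46, 9.83, 8.25, 8.45 and 7.77. In WL the values were 9.16, 8.34, 8.72, 9.16 and 10.52, and in WW they ran from 7.46 over a median of 7.59 to 9.14. All WW mice but replicate 1 (9.14) were below every WL mouse. Serpine2 was 2.50-fold lower in WW than in WL (log2 difference -1.32, SE 0.41, adjusted p = 0.151 by limma) and 1.69-fold lower in LW than in LL (-0.76, adjusted p = 0.387). The average after weaning was -1.04 (SE 0.29, adjusted p = 0.0514).

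Within slides Serpine2 was lower in WW than in WL by -1.28 on slide 2 and -2.78 on slide 4, and lower in LW than in LL by -1.56 on slide 1 and -0.84 on slide 3. With slide as a fixed block it passed in WW against WL (-1.92, adjusted p = 0.00388) and in the average (-1.35, adjusted p = 0.00622). It was the only member that passed in both with the block also when WL replicate 5 was left out (-1.59 with adjusted p = 0.0482, and -1.25 with adjusted p = 0.00878).

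With slide as a fixed block, 6 members passed in WW against WL, all lower, beside 1.37% of all genes in that direction. They were F11, Serpine2, Serpina3k (-1.42), Serpina1e (-2.49), Serpina11 (-0.65) and Serpina4-ps1 (-1.21). That count rested on single mice. It was 1 without WL replicate 5, the only WL mouse on slide 4, and 1 without WL replicate 1, while the calls among all genes went from 316 to 44 and 101. It was 3 without WL replicate 4, WW replicate 4, LW replicate 5 or LL replicate 3, beside 190, 180, 202 and 176 calls among all genes, and 10 without WL replicate 2, beside 557. In the average after weaning 6 passed with the block: Fgb, Serpine2, Serpina1a, Serpina3k and Serpina11 lower, beside 1.17% of all genes, and Serpina6 higher, beside 1.34%. This second count was 0 without LL replicate 1 and 1 without LW replicate 5, while the calls among all genes went from 248 to 47 and 83. It was 2 without LW replicate 1, WL replicate 4 or WW replicate 6, beside 173, 203 and 133 calls among all genes. It was 3 without WW replicate 1, WL replicate 3, LL replicate 2, WW replicate 5, LL replicate 5 or LL replicate 6, beside 139 to 210.

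The other serpins of this kind stayed nearer to level. Serpinc1 encodes antithrombin, the main inhibitor of thrombin, and averaged 7.75 ± 0.75 in LL, 7.99 ± 0.27 in LW, 7.90 ± 0.23 in WL and 7.54 ± 0.32 in WW. Its 2 probes went opposite ways in LW against LL (0.24 and -0.25) and the same way in WW against WL (-0.36 and -0.32). Serpind1, heparin cofactor II, averaged 11.15 ± 0.15, 10.83 ± 0.14, 11.11 ± 0.17 and 11.05 ± 0.21 in the order LL, LW, WL and WW, and differed by -0.32 in LW against LL (adjusted p = 0.201). Serpina10, an inhibitor of factor X that works with protein Z, differed by 0.30 in LW against LL and 0.18 in WW against WL. Serpinf2, antiplasmin, and Serping1, the C1 inhibitor that also blocks kallikrein, differed by 0.18 and 0.16 in LW against LL and by 0.06 and -0.12 in WW against WL. Serpina5, the protein C inhibitor, was detected on 3 arrays and not tested.

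The 5 tested copies of the alpha-1-antitrypsin gene, whose human counterpart makes the main inhibitor of neutrophil elastase, differed in how much they varied between mice. Serpina1e ran from 10.92 over a median of 12.40 to 14.94 in LL, and from 10.48 over a median of 11.28 to 13.91 in WW. The LW mice measured 13.10, 13.25, 13.37, 12.16 and 10.10, and the WL mice 13.79, 11.98, 11.80, 13.19 and 14.96. Every group thus held mice with high and mice with low Serpina1e, and the groups overlapped broadly. From the lowest to the highest of the 22 mice the range was 28.9-fold. The SD within groups was 1.45, at percentile 99.9 of all 9881 genes.

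The 4 other copies kept within narrower bounds. Serpina1b had an SD within groups of 0.09 (percentile 0.2), Serpina1c of 0.15, Serpina1d of 0.23 and Serpina1a of 0.33, where the median of all genes was 0.26. The probes of Serpina1b, Serpina1c and Serpina1d lie near the brightest signal, where differences are compressed, but Serpina1a does not, at means from 10.34 to 10.83. The copies are nearly identical in sequence, and how far a probe of 1 copy also reads another was not tested.

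**Figure D3:**
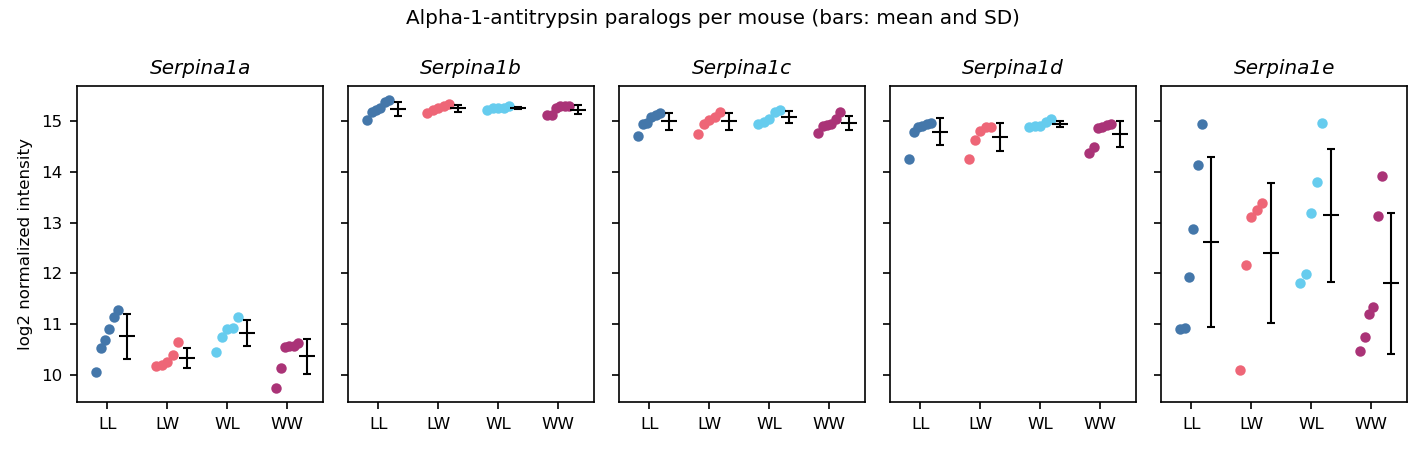
Log2 normalised intensity of the 5 tested Serpina1 copies in each mouse (points, sorted by value only to part them) by group on 1 shared axis, with the mean and SD at the right of each group. Serpina1e spreads from 10.10 to 14.96 in mice of the same groups in which Serpina1b stays between 15.01 and 15.40.

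By diet, Serpina1e differed by -0.22 in LW against LL (95% interval -1.80 to 1.35) and by -1.34 in WW against WL (-2.91 to 0.23), with adjusted p of 0.919 and 0.450 by limma. With slide as a block WW minus WL was -2.49 and passed (adjusted p = 0.0391 by limma), and it passed in 12 of the 22 fits with the block that left out 1 mouse. Without WL replicate 5 it was -2.19 with the block (adjusted p = 0.194). Within slides it was -1.61 on slide 2 and -3.15 on slide 4. Serpina1a averaged 10.77 ± 0.44 in LL, 10.34 ± 0.19 in LW, 10.83 ± 0.25 in WL and 10.37 ± 0.35 in WW. Its difference was -0.43 in LW against LL and -0.46 in WW against WL, and the average of -0.45 (SE 0.13) had an adjusted p of 0.0673. Serpina1b, Serpina1c and Serpina1d averaged 15.24, 14.98 and 14.79 in LL and 15.22, 14.95 and 14.74 in WW. Serpina1f, a further copy, was detected on 2 arrays and not tested.

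Of the antichymotrypsin copies 5 were tested, and Serpina3k varied most. It ran from 7.10 over a median of 7.58 to 9.42 in LL, and the LW mice measured 7.73, 7.55, 6.95, 7.05 and 6.37. The WL mice measured 8.08, 7.29, 7.58, 7.99 and 8.51, and WW ran from 5.76 over a median of 7.01 to 7.53. Serpina3k was 2.07-fold lower in WW than in WL (log2 difference -1.05, SE 0.35, adjusted p = 0.182 by limma) and 1.61-fold lower in LW than in LL (-0.69, adjusted p = 0.353). The average after weaning was -0.87 (adjusted p = 0.0572). Serpina3n, a copy known to rise in the acute phase response, averaged 12.41 ± 0.09 in LL, 12.59 ± 0.16 in LW, 12.52 ± 0.25 in WL and 12.46 ± 0.16 in WW. Serpina3g and Serpina3f had their highest means in WW, 8.87 and 6.60 against 8.43 and 6.20 in LL. Their LL means rest in part on the low replicate 1 (7.28 and 5.10). The medians were 8.72 and 6.66 in WW against 8.70 and 6.45 in LL. Serpina3m kept between 11.72 and 11.90. Serpina3a, Serpina3b, Serpina3c and Serpina3h were detected on 0 to 3 arrays and not tested.

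Of the hormone carriers, Serpina6 encodes corticosteroid-binding globulin, the carrier of corticosterone in blood. LL ran from 10.07 over a median of 10.37 to 11.16, and the LW mice measured 12.21, 10.56, 10.57, 11.99 and 12.24. The WL mice measured 11.37, 10.61, 11.68, 10.997 and 9.84, and WW ran from 10.99 over a median of 11.57 to 12.12. The LW mice fell into 3 values near 12 and 2 near 10.6, the latter within the range of LL. Serpina6 was 2.03-fold higher in LW than in LL (log2 difference 1.02, SE 0.33, adjusted p = 0.143) and 1.54-fold higher in WW than in WL (0.62, adjusted p = 0.409), and the average of 0.82 missed the threshold (adjusted p = 0.0541 by limma). Serpina7, the thyroxine-binding globulin, had means of 8.63 in LL, 9.11 in LW, 9.20 in WL and 9.70 in WW. Its LL mean rests in part on replicate 1, at 6.06 where the other 5 LL mice lay between 8.81 and 9.54.

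Maternal diet was compared within each diet of the sons. Comparing WL with LL, comparing WW with LW, and in their average, 0 of 44 members and 0% of all genes passed limma's test. At an unadjusted p under 0.05, 2 members stood out in WL against LL (4.74% of all genes) and 3 in the average (5.89%). In WW against LW 2 were higher (5.78%) and 6 lower (4.23%). No member had groups that did not overlap, against 0.374% of all genes for WL with LL and 0.638% for WW with LW. Serpina12 had the smallest p of the members in WW against LW and in the average. It encodes vaspin, a secreted serpin linked to insulin sensitivity. LL ran from 10.69 over a median of 11.01 to 11.67 and WW from 10.26 over a median of 11.40 to 12.02. The LW mice measured 10.18, 10.48, 11.44, 9.81 and 9.81, and the WL mice 11.76, 11.61, 11.05, 11.90 and 12.13.

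The order of the Serpina12 means was 11.69 in WL, 11.25 in WW, 11.05 in LL and 10.35 in LW. The difference by maternal diet was 0.64 in WL against LL (SE 0.29, adjusted p = 0.996) and 0.91 in WW against LW (SE 0.29, adjusted p = 0.421), and the average was 0.77 (SE 0.21, adjusted p = 0.816 by limma). Within slides WL was higher than LL by 0.52 on slide 3 and 0.96 on slide 4, and WW was higher than LW by 1.52 on slide 1 and 0.78 on slide 2. The difference by the son's diet was -0.70 in LW against LL and -0.43 in WW against WL. A second, dimmer Serpina12 probe, detected on 15 arrays, gave 0.24 for WL minus LL and 0.84 for WW minus LW, and -0.53 and 0.06 for LW against LL and WW against WL.

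The 6 members lower in WW than in LW at an unadjusted p under 0.05 were F7 (-0.49), Klkb1 (-0.47), Fetub (-0.47), Proc (-0.40), F10 (-0.32) and Serpinf1 (-0.28), with adjusted p from 0.433 to 0.488. Serpinf1 encodes pigment epithelium-derived factor, a secreted serpin that inhibits no protease. It averaged 14.33 ± 0.23 in LL, 14.41 ± 0.22 in LW, 14.15 ± 0.16 in WL and 14.13 ± 0.20 in WW, a maternal average of -0.23 (SE 0.09, adjusted p = 0.816).

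Serpinh1 encodes HSP47, which folds collagen inside the cell and marks cells that make matrix. It ran from 7.35 over a median of 7.60 to 8.19 in LL, and the LW mice measured 7.66, 7.97, 8.77, 8.25 and 8.02. The WL mice measured 7.78, 8.80, 8.23, 8.15 and 7.23, and WW ran from 7.77 over a median of 8.70 to 9.01. Serpinh1 was highest in WW, by 0.51 over WL (adjusted p = 0.369) and by 0.41 over LW (adjusted p = 0.580). Within slides WW minus WL was 0.23 on slide 2 and 1.12 on slide 4, and WW minus LW was 0.95 on slide 1 and 0.01 on slide 2. The Serpinh1 average was 0.49 for diet after weaning (adjusted p = 0.117) and 0.39 for maternal diet (adjusted p = 0.816 by limma). Markers of stellate cells and fibroblasts, 5 of 7 of them tested, had mean differences from LL of -0.03 to 0.99 in WW, -0.25 to 0.33 in WL, -0.27 to 0.52 in LW and -0.29 to 0.37 in LL. The 5 markers did not move as 1: in WW against WL 3 were higher and 2 lower, from -0.12 to 1.05. In WW against LW 4 were higher and 1 lower, and none passed the adjusted test in either comparison. The part of these markers in the Serpinh1 values was not tested.

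**Figure D4:**
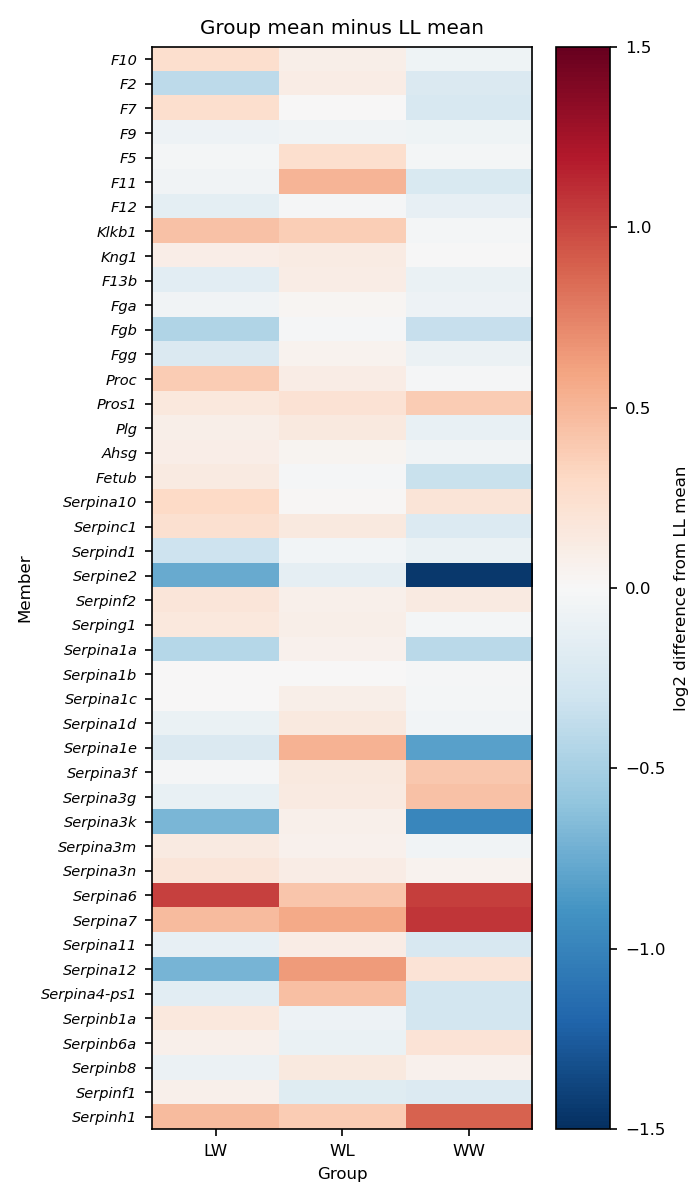
Difference of each group's mean from the LL mean (colour, log2 units) for the 44 tested members in LW, WL and WW, ordered by role. Serpina6 was higher than in LL by 1.02 in LW, and Serpine2 lower by -0.76 in LW and by -1.45 in WW.

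Across the 4 groups at once, limma's F test passed 0 of 44 members beside 0.567% of all genes, and 9 members had an unadjusted p under 0.05 beside 16.1% of all genes. The smallest adjusted p were those of Fgb (0.0952, with the same limit from its detection), Serpina12 (0.101) and F11 (0.111). Over the 44 members the median SD within groups was 0.29, where the median of all genes was 0.26. The narrowest were Kng1, Serpina1b, Ahsg and F12, between 0.09 and 0.11, and the widest were Serpina1e, Serpina7, Serpine2 and Serpina4-ps1, between 0.74 and 1.45.

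The serpins of clade B act mostly inside cells, and few of them were detected in liver. Of 25 genes 3 were tested: Serpinb1a and Serpinb6a, detected on 20 and 22 arrays, and Serpinb8, detected on 5. Serpinb1a, an inhibitor of neutrophil proteases, averaged between 5.40 in WW and 5.82 in LW. Serpinb6a was higher in WW than in WL by 0.30, with an adjusted p of 0.332. Among the 32 genes that were not tested, 22 belonged to clade B, 16 were detected on no array and 16 on 1 to 4 arrays. Outside clade B they included Serpina1f, Serpina3a, Serpina3b, Serpina3c, Serpina3h, Serpina5, Serpina9, Serpini1 and Serpini2.

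A list of 44 other genes of haemostasis (other factors, plasminogen activators, protease inhibitors and receptors of thrombin) gave 32 tested genes. None of the 32 passed limma's test in LW against LL, WW against WL, WL against LL, WW against LW, the interaction or the maternal average. At an unadjusted p under 0.05 there were 3, 4 and 1 in the first 3 comparisons, beside 15.4%, 13.8% and 4.74% of all genes. WW against LW had 2 higher (5.78%) and 1 lower (4.23%), the interaction 2 lower (3.98%) and the maternal average 3 (5.89%). In the average after weaning 1 of the 32 passed, beside 2.71% of all genes. Anxa2, a cell-surface protein that binds plasminogen, was 2.18-fold higher (log2 difference 1.12, SE 0.29, adjusted p = 0.0345). It was 3.16-fold higher in WW than in WL (1.66, adjusted p = 0.0625), and LW minus LL was 0.59 (adjusted p = 0.513). In WW against WL the groups did not overlap for Anxa2, Gas6 (0.90) and Mug1 (-0.89), beside 1.82% of all genes. In LW against LL they did not overlap for Hgfac (0.405), beside 2.34% of all genes.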

How the data were processed

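The authors deposited a non-normalized table of intensity values with, for each probe and array, a detection p-value; per the file headers no further step is named for either. A second deposited intensity table was normalized by the authors in a way not given in the sources used here; its 22 columns each matched their own array best, and it served as an alternative. RNA was extracted with TriReagent and labelled with the TotalPrep kit, per the labels' protocols.

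Background correction and quantile normalization of the intensities used neqc (limma 3.58.1, R 4.3.3, offset 16). Of 45281 probes 35713 matched 1 gene of a RefSeq table (GRCm38.p6, used for names and promoter sequences). Probes with a detection p under 0.05 on at least 5 arrays were kept (16268, of them 14409 named), and the brightest named probe stood for its gene (9881 genes). A model of the 4 group means over all 22 arrays was fitted by lmFit and eBayes. Adjusted p for the differences are limma's after Benjamini-Hochberg adjustment over all rows of that fit, the 9881 genes for the main results. Correlations were tested by permutation (100000 resamples, SciPy 1.17.1, Python 3.11.15), and their p were adjusted in the same way over the 3 or 6 pairs of each set.

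Alternatives were the offset, the deposited normalization, scale normalization, the detection filter, the mean over probes, slide or replicate number as a block, limma-trend and leaving mice out. Replicate numbers were not used as pairs. The fit was also run on simulated data in which genes were independent and slides did not differ. That run therefore cannot show how slide differences affect the calls. Members described in full were those called, the 3 with the smallest p in each of the 7 comparisons, and the fixed Fga, Fgb, Fgg, F2, Plg, Serpinc1, Serpina1a to Serpina1e, Serpina3k, Serpina3n, Serpina6, Serpinh1 and Ahsg. The others are given by means, ranges and counts, and 1 further fixed member is not reported here. The members and lists were chosen with earlier results of these data known.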

Additional observations from a re-analysis of the deposited data

Results flagged for a closer look

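Among 92 groups of values (23 members in 4 groups), 7 held a mouse whose gap to the nearest other mouse was large for the group's range by Dixon's criterion, which chance meets in about 1 in 20 groups. In LL replicate 1, Fgg was lowest (11.16) and Serpina1d lowest (14.26), while Klkb1 was highest (11.69) and Serpinf1 highest (14.79). This mouse is the only LL mouse on slide 1, where Fgg and Serpina1d lay apart in all 5 mice. The lowest Ahsg value of LL was that of replicate 3 (14.82), and the lowest Fga value of WW that of replicate 3 (14.49). Serpine2 was highest in WW replicate 1 (9.14).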

How the results depend on the processing

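In the average after weaning Fgb passed in all 22 fits that left out 1 mouse without a block and in 11 of 22 with slide as a block. With genes required on at least 11 arrays it was not tested, and the 1 call was Serpine2 (adjusted p = 0.0495). Of 43 differences with an unadjusted p under 0.05, none changed sign in the 36 alternatives where it could be computed (40 of the 43 under that filter), while 13 of them came to pass. These 43 were picked for a small p on the same arrays, so their kept signs are no separate support. Over all 308 differences of the members, 34 changed sign with scale normalization and 38 with slide as a fixed block. In WW against WL the count of members called went from 0 to 1 (F11) with an offset of 50, with the deposited normalized values, with limma-trend and with the replicate block, to 2 with slide as a random block and to 6 with slide as a fixed block, and was 1 with that block without WL replicate 5. The calls among all genes, 47 as reported, were 50, 125, 54, 122, 122, 316 and 44 in that order. In the average after weaning the count of 1 became 4 with the deposited values, 2 with the mean over probes, 3 with limma-trend, 5 with slide as a random block, 6 with it as a fixed block, 4 with that block without WL replicate 5 and 8 with the replicate block. The calls among all genes, 268 as reported, were 236, 264, 288, 307, 248, 166 and 788 in that order. Over the 4 groups the F test called 0, but 1 with slide as a fixed or random block, with the fixed block without WL replicate 5 and with the replicate block. In LW against LL, a fit without both LL replicate 1 and WL replicate 5 gave 1 call, Klkb1 (0.63, adjusted p = 0.0424), beside 205 among all genes instead of 24. Leaving out 1 mouse at a time gave 0 to 1 calls in WW against WL, 1 to 5 in the average after weaning (5 without LL replicate 3, beside 385 among all genes), 0 to 1 in the F test and 0 in the other comparisons. The cause of these moves was not tested. With slide removed, r became -0.09 (-0.0855) for Fga with Fgb and 0.36 (0.3629) for Fga with Fgg. The labels do not say what a replicate number stands for, but some same-numbered mice lay on the same slide. LL, LW and WW replicate 1 were on slide 1, and LL and WW replicate 6 on slide 4. Not every pair of same-numbered mice correlated above 0.1: the range was -0.18 to 0.45, with 0.30 to 0.45 for number 1 and 0.25 for number 6. Of 22 mice, 10 correlated best with their own number. The fits by slide with mice left out were chosen after seeing the data. Signal over background limits Fgb, Serpinb8, Serpinb1a and Serpina4-ps1, which were not detected on every array, and the brightest members have compressed differences.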

Other observations

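The spread of Serpina1e between mice of 1 group was set beside that of 3 other serpins and 3 liver enzymes. The 6 pairs below were chosen after the data had been seen, so the values are a description of these 22 mice, computed after the group means were removed. Serpine2 had r = 0.85 with Serpina1e and rho = 0.89, with an adjusted permutation p of 6e-05, the smallest the resamples can give for 6 pairs. For Serpina3k r was 0.71 and rho 0.70 (adjusted permutation p = 0.00048 and 0.00138), and for Serpina4-ps1 0.48 and 0.53 (0.0244 and 0.0132). Of 3 genes outside the serpins, Hsd3b5 gave 0.67 and 0.65 (0.00104 and 0.00256), Cyp4a12b 0.67 and 0.64 (0.00115 and 0.00256) and Elovl3 0.58 and 0.59 (0.00577 and 0.00581).

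Without LL replicate 1 and WW replicate 1, the mice farthest from the median, r was 0.79 for Serpine2, 0.60 for Serpina3k, 0.50 for Serpina4-ps1, 0.60 for Hsd3b5, 0.64 for Cyp4a12b and 0.62 for Elovl3. With slide removed as well as group, r was 0.78, 0.62, 0.07, 0.43, 0.56 and 0.51 in that order, so that the relation with Serpina4-ps1 did not hold. Within slide 2 Serpine2 gave 0.70 and within slide 4 it gave 0.81, over 6 mice each, while Serpina3k gave 0.25 and 0.35. For Hsd3b5 the value within slide 4 was -0.19.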
